A study of Mus musculus with 8 samples.

Results

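Protein phosphatase 1 (PP1) removes phosphate from serine and threonine, and 9 genes of this enzyme and its partners were followed in synchronized mouse testes with and without *Spdya*. The 9 genes are the catalytic subunits *Ppp1cc*, *Ppp1ca* and *Ppp1cb*, the inhibitors *Ppp1r2* and *Ppp1r11*, the PP1-binding protein *Ppp1r7*, and *Ppp1r32*, *Ppp1r36* and *Ppp1r42*, which carry PP1 regulatory subunit names. They were picked by symbol from a table of 54532 genes, with the levels of *Ppp1r36* and *Ppp1r42* in these groups already known, so differences between the groups in the 9 genes are given here as descriptions, with no p for any of them and with nothing read from the counts of calls among them.

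PP1 works as a small catalytic subunit bound to regulatory proteins. Those proteins block it, or hold it at a place in the cell and set which substrates it meets. In the male germ line the gamma gene *Ppp1cc* is known for a splice form enriched in testis and sperm, and male mice that lack the gene are infertile. PP1 counters Cdk and Aurora kinases during cell division, and Spdya protein (Speedy A) is an activator of Cdk2 at the telomeres of spermatocytes.

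Whole testes of 8 mice gave 1 RNA-seq library each, 4 from *Sync-Spdya fl/fl* controls and 4 from *Sync-Spdya cKO* mice. All were on a C57BL/6J background with both *Spdya* alleles floxed, had spermatogonial differentiation held back with an inhibitor of retinoic acid (RA) synthesis and released together by RA, and received tamoxifen at RA7.5 and RA8.5 per the labels. Testes were collected at RA11.5, in days after RA. The cKO mice also carried *Ddx4-CreERT2*, a tamoxifen-dependent Cre driven in germ cells, which the fl/fl mice lacked, so the loss of *Spdya* and the presence of Cre cannot be told apart. The labels give no age in days after birth. Levels are in FPKM, fragments divided by gene length and by a scaled library size. The libraries held 13978342 to 19583091 fragments on genes. *Spdya* itself was at 19.7 to 23.8 FPKM in the fl/fl libraries and at 17.7 to 30.5 FPKM in the cKO libraries. The paper describes Cre deleting 1 exon of the gene, which a whole-gene level need not show. This level therefore gave no check of the labels.

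The testes held RNA of pachytene spermatocytes and of somatic cells, and next to none of spermatids. Of 8 pachytene genes, 7 had a lower mean in the cKO libraries, and their summed level was 844 to 1371 FPKM in the fl/fl and 659 to 1017 FPKM in the cKO libraries. *Hist1h1t*, the exception, was at 0.279 and 0.667 FPKM on average, although it is a defining gene of mid pachytene. Of 8 spermatid genes *Acrv1*, *Tnp1* and *Prm2* were below 0.1 FPKM over all libraries, and the summed level was 5.53 to 13.3 and 6.59 to 8.79 FPKM. Summed macrophage genes (5 of 5 with a higher mean) were at 11.5 to 17.7 and 19.02 to 23.2 FPKM and endothelial genes (3 of 3) at 4.06 to 10.4 and 9.56 to 12.4 FPKM. Peritubular genes (2 of 3 higher) were at 42.7 to 73.1 and 71.6 to 101 FPKM, Leydig genes (4 of 5) at 15.6 to 33.2 and 25.2 to 41.0 FPKM, and Sertoli genes (6 of 7) at 349 to 511 and 430 to 517 FPKM. Of all these sums, only that of the macrophage genes did not overlap between the groups. Spermatogonial genes (7 of 8 higher) were at 211 to 277 and 271 to 281 FPKM, and leptotene and zygotene genes (3 of 6) at 101 to 136 and 96.2 to 137 FPKM, again with overlap. The part of these shifts in the results below was not tested. In these whole-testis libraries, fewer cells of a type and less RNA per cell cannot be told apart. In single-cell data from slightly later testes of the same model, the paper reports a smaller share of spermatocytes in cKO testes. It takes this as a sign of spermatocyte loss. The part of such a loss in the levels given here was not tested. The mitochondrial share of fragments was 0.464% in fl/fl replicate 1 and 2.20% to 3.74% in the other 7 libraries.

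*Ppp1r36*, whose protein is annotated as PP1 regulatory subunit 36, stood at 8.30, 8.03, 9.997 and 6.93 FPKM in the 4 fl/fl libraries. In the cKO libraries it stood at 3.78, 4.32, 2.89 and 2.53 FPKM. Every cKO library lay below every fl/fl library. The means were 8.31 ± 1.27 and 3.38 ± 0.817 FPKM (SD, n = 4 per group), so the cKO mean was 0.407 of the fl/fl mean. The log2 fold change, computed on log2(FPKM + 0.1), was -1.29 with a standard error of 0.18. The gene (ENSMUSG00000052221) lies on the plus strand of chromosome 12 of GRCm38, 76417538 to 76439492. It was covered by 364 to 523 fragments in the fl/fl libraries and 144 to 245 in the cKO libraries, and the 95% Poisson limits, which cover counting error only, reached 4.92 FPKM at most in the cKO libraries and 6.25 FPKM at least in the fl/fl libraries.

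*Ppp1r42*, a leucine-rich repeat protein also known as TLRR that sits at the microtubule-organizing region of male germ cells, stood at 3.46, 3.30, 5.29 and 4.25 FPKM in the fl/fl libraries. In the cKO libraries it stood at 2.81, 2.01, 1.60 and 1.28 FPKM. The groups again did not overlap, although the gap between cKO replicate 1 and fl/fl replicate 2 was narrow. The means were 4.07 ± 0.913 and 1.92 ± 0.664 FPKM (SD, n = 4 per group), and the log2 fold change was -1.08 with a standard error of 0.24. The gene (ENSMUSG00000025916, chromosome 1, minus strand, 9968624 to 10009136) had only 33 to 126 fragments per library, so its Poisson limits of the highest cKO library (up to 3.48 FPKM) and the lowest fl/fl library (from 2.65 FPKM) overlapped.

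*Ppp1r32*, named as regulatory subunit 32 and known from ciliated cells, stood at 1.83, 5.26, 5.53 and 4.27 FPKM in the fl/fl libraries and at 2.41, 3.61, 2.48 and 3.11 FPKM in the cKO libraries. Fl/fl replicate 1, the library with the low mitochondrial share, was below all 4 cKO libraries, while the other 3 fl/fl libraries were above them. The log2 fold change was -0.43 with a standard error of 0.31, and -0.78 without fl/fl replicate 1. With 35 to 139 fragments per library it was, with *Ppp1r42*, the most thinly covered gene of the 9. It lies on chromosome 19, minus strand, 10474257 to 10482897 (ENSMUSG00000035179).

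**Figure D1:**
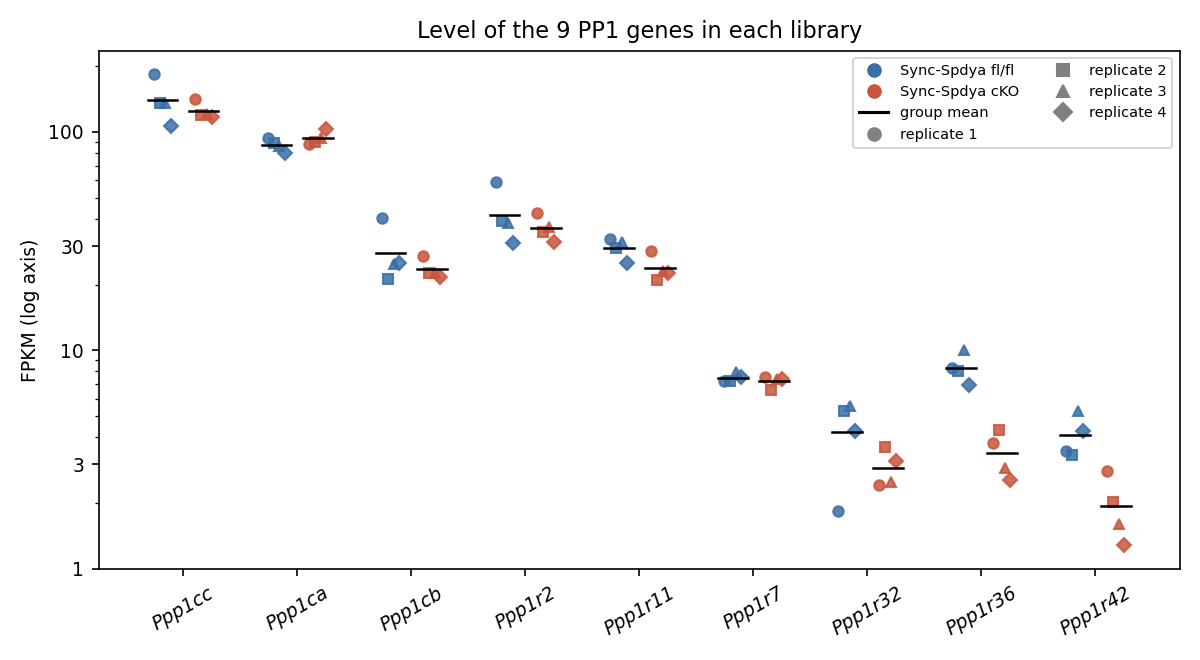
FPKM of the 9 genes (log axis) in the 4 fl/fl (blue) and 4 cKO (red) libraries, with a marker shape for each replicate number and a black line at the group mean. Only *Ppp1r36* and *Ppp1r42* show no overlap between the groups, with *Ppp1r36* at 6.93 FPKM or more in the fl/fl libraries and 4.32 FPKM or less in the cKO libraries.

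The start regions of *Ppp1r36* and *Ppp1r32* are shown beside that of *Ppp1cc* because these genes represent the low, testis-named members and the most abundant member. Each holds 250 bases before and 50 after a RefSeq start site, 5′ to 3′ on the strand of the gene, on GRCm38.p6. RefSeq start regions were found for 7 of the 9 genes, not for *Ppp1ca* and *Ppp1r42*. Capitals mark matches on either strand to any of 4 motifs, chosen after the sequences had been read: GTTGC and GCAAC with any 3 bases between them (a palindromic X-box of RFX factors), TGACGTCA (the site of CREB and CREM), CCAAT (the box of NF-Y) and CNGTTG (a core of MYB factors).
Ppp1r36, chr12:76417349-76417648, plus strand: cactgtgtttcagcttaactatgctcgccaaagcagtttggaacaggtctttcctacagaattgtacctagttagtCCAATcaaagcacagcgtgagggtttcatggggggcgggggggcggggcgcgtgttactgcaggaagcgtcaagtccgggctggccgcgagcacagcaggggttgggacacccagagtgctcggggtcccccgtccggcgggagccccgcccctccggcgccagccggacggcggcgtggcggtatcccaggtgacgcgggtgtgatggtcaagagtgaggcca
Ppp1r32, chr19:10482879-10483178, minus strand: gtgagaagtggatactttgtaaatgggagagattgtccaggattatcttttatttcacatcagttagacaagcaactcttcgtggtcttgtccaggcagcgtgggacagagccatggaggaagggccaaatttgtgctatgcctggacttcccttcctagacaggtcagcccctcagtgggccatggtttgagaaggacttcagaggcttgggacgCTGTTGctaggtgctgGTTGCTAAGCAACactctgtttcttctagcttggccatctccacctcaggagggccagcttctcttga
Ppp1cc, chr5:122158025-122158324, plus strand: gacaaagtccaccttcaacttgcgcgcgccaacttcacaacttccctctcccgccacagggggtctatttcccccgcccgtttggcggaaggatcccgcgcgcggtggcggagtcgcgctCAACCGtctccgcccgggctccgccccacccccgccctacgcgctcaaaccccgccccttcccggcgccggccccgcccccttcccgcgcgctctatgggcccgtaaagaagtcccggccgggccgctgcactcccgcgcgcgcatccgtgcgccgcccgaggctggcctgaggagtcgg

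The *Ppp1r32* region held the X-box letters 18 bases before the start, a match found in 0.225% of the 32851 start regions of the table and in none of the other 6 genes. It also held CNGTTG, as did those of *Ppp1cb*, *Ppp1cc* and *Ppp1r11* (35.0% of all regions). The match in *Ppp1r36* was a CCAAT box 174 bases before the start. CCAAT was present in 37.4% of all regions and also in *Ppp1r7* and *Ppp1r11*. TGACGTCA was in none of the 7 genes and in 1.79% of all regions. The *Ppp1cc* region had 42 CG pairs, that of *Ppp1r36* 24 and that of *Ppp1r32* 3, against a median of 7 over all regions. These matches describe letters in a window and were not linked to the levels.

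*Ppp1r36* lies 10600 bases downstream of *Hspa2* on the same strand. *Hspa2* encodes a heat shock protein of pachytene spermatocytes and is among the most used markers of the stage. It was at 389 ± 84.9 FPKM in the fl/fl and 313 ± 62.0 FPKM in the cKO libraries (SD, n = 4 per group), a log2 fold change of -0.30 (limma unadjusted p = 0.187). Per 100 FPKM of *Hspa2*, *Ppp1r36* was at 2.18 ± 0.337 FPKM in the fl/fl and 1.09 ± 0.276 FPKM in the cKO libraries (SD, n = 4 per group), again without overlap between the groups. Its cKO level was 0.501 of the fl/fl level on this scale, 0.532 per *Piwil1*, 0.448 per *Tbpl1* and 0.663 per *Ldhc*, and the groups did not overlap on any of the 4. *Piwil1*, *Tbpl1* and *Ldhc* are further pachytene markers, and the choice of divisor was made after the values were seen. No mean level was computed per any of the other pachytene genes. Of these, *Ccna1* was itself lower without overlap, at 0.586 of its fl/fl mean, and *Pou5f2* was at 0.565 with overlap. *Pgk2* was at 0.990 and *Hist1h1t* at 2.39. The lack of overlap of *Ppp1r36* held for *Hspa2*, *Piwil1*, *Tbpl1* and *Ldhc*, but not for every pachytene divisor. In cKO replicate 2 *Ppp1r36* was at 4.32 and *Ccna1* at 0.853 FPKM, against 8.03 and 1.71 FPKM in fl/fl replicate 2. Per *Ccna1*, that cKO library stood above that fl/fl library, so the groups overlapped. Per *Pou5f2* they also overlapped, while per *Pgk2* and *Hist1h1t* they did not. *Ppp1r42* was at 0.551 of the fl/fl level per *Hspa2*, 0.609 per *Piwil1* and 0.505 per *Tbpl1* without overlap, and at 0.740 per *Ldhc*, where the groups overlapped. The next expressed gene after *Ppp1r36*, *Plekhg3*, starts 91399 bases further on and was at 1.15 ± 0.231 and 1.18 ± 0.0546 FPKM (SD, n = 4 per group). The genes flanking *Ppp1r42*, *Tcf24* and *Cops5*, lie 692 and 15465 bases away and had log2 fold changes of -0.13 and -0.13.

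**Figure D2:**
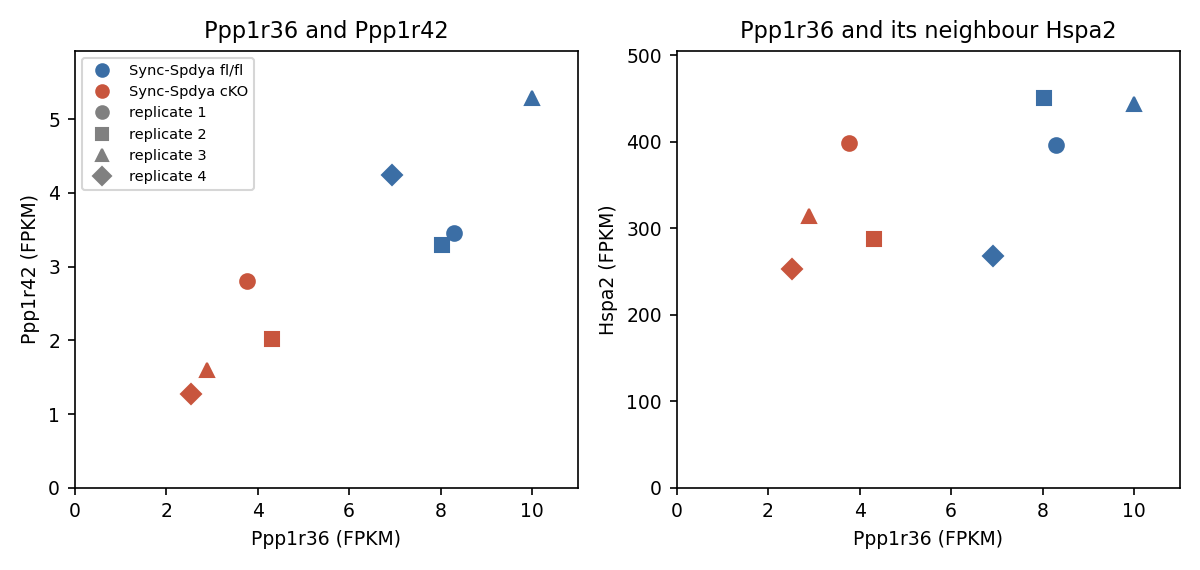
FPKM of *Ppp1r42* (left) and of the neighbouring pachytene gene *Hspa2* (right) against FPKM of *Ppp1r36*, a point per library, blue for fl/fl and red for cKO, with a marker shape for each replicate number. Both *Ppp1r36* and *Ppp1r42* separate the groups, while *Hspa2* overlaps, with cKO replicate 1 at 399 FPKM and fl/fl replicate 4 at 267 FPKM.

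The catalytic subunits were the most abundant of the 9 genes, apart from *Ppp1cb*. *Ppp1cc* (PP1 gamma) stood at 184, 136, 135 and 106 FPKM in the fl/fl libraries and at 142, 120, 121 and 117 FPKM in the cKO libraries. The cKO libraries all lay within the fl/fl range, and the log2 fold change was -0.14 with a standard error of 0.17. Without fl/fl replicate 1 it was -0.01. *Ppp1cc* lies on chromosome 5, plus strand, 122158278 to 122175273 (ENSMUSG00000004455). The annotation (GENCODE vM21) gives it 2 complete coding forms, of 323 and 337 codons, which a table of gene totals cannot separate.

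*Ppp1ca* (PP1 alpha) stood at 94.1, 88.6, 86.6 and 79.8 FPKM in the fl/fl libraries and at 87.6, 89.6, 93.7 and 103 FPKM in the cKO libraries. It was the only gene of the 9 with a log2 fold change above 0, at 0.10 with a standard error of 0.11, and the groups overlapped. *Ppp1cb* (PP1 beta, which with myosin-targeting subunits forms myosin phosphatase) stood at 40.4, 21.3, 24.8 and 25.1 FPKM in the fl/fl libraries and at 27.1, 22.5, 22.7 and 21.6 FPKM in the cKO libraries. Fl/fl replicate 1 stood apart at the top, and the log2 fold change of -0.21 (standard error 0.18) became -0.02 without it. The coordinates were 4192158 to 4195419 on chromosome 19 for *Ppp1ca* and 32458843 to 32517433 on chromosome 5 for *Ppp1cb*, both on the plus strand.

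*Ppp1cc* made up 54.6% ± 3.12 of the summed FPKM of the 3 catalytic genes in the fl/fl libraries and 51.6% ± 2.86 in the cKO libraries (SD, n = 4 per group). *Ppp1ca* made up 34.6% ± 3.55 and 38.7% ± 3.51, and *Ppp1cb* 10.8% ± 1.83 and 9.69% ± 0.651. The differences were near the SD between libraries, and the ranges of the groups overlapped for each gene. Because the authors divided by lengths of 3424, 1379 and 10913 bases, the order depends on the length: of the fragments themselves, *Ppp1cb* took 33.3% in the fl/fl libraries and *Ppp1ca* 13.6%. The summed catalytic level ranged from 211 to 318 FPKM in the fl/fl and from 232 to 257 FPKM in the cKO libraries.

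**Figure D3:**
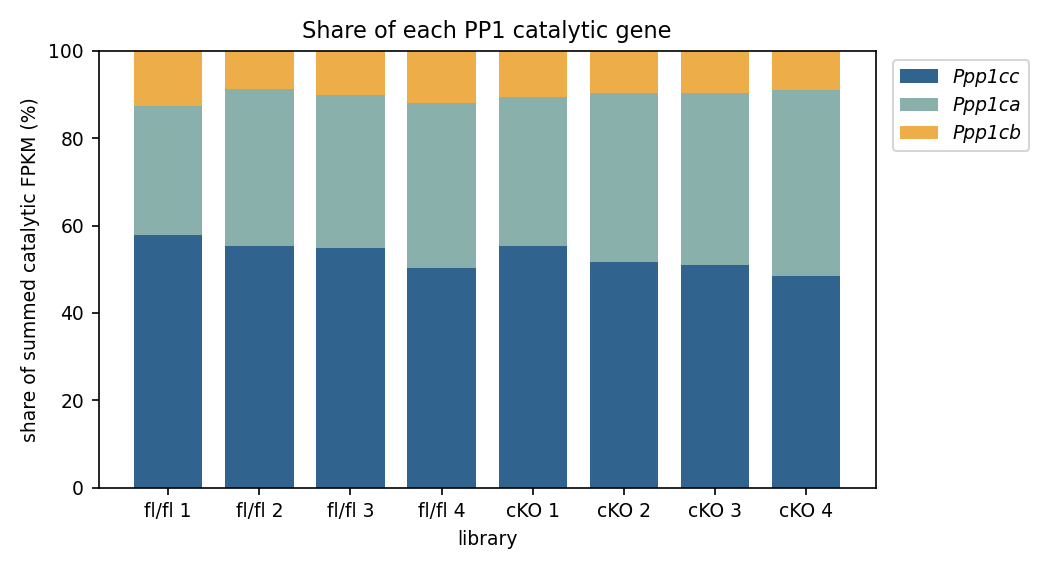
Stacked bars of the share (%) of summed catalytic FPKM taken by *Ppp1cc*, *Ppp1ca* and *Ppp1cb* in each of the 8 libraries. *Ppp1cc* took 48.4% to 57.7% and *Ppp1cb* 8.64% to 12.7% in all 8, with no separation between fl/fl and cKO.

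The 2 inhibitors and *Ppp1r7* overlapped between the groups. *Ppp1r2* (inhibitor-2, a heat-stable inhibitor also known from sperm) stood at 58.8, 38.9, 38.1 and 30.9 FPKM in the fl/fl libraries and at 42.6, 34.8, 36.7 and 31.3 FPKM in the cKO libraries. Within each group its libraries ranked in the same order as those of *Ppp1cc*, with replicate 1 highest and replicate 4 lowest. Its log2 fold change of -0.16 (standard error 0.19) turned to 0.01 without fl/fl replicate 1. *Ppp1r2* (chromosome 16, 31251537 to 31275277) has 7 processed pseudogenes in the table, at 0 to 3.16 FPKM on average, to which the counting may have assigned some of its fragments.

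*Ppp1r11* (inhibitor-3) stood at 32.2, 29.4, 31.2 and 24.97 FPKM in the fl/fl libraries and at 28.6, 21.0, 23.0 and 22.5 FPKM in the cKO libraries. Only cKO replicate 1 reached into the fl/fl range, above fl/fl replicate 4. The log2 fold change was -0.31 with a standard error of 0.13. *Ppp1r7* (SDS22, a leucine-rich repeat protein that binds the catalytic subunit from its earliest stages) varied least, at 7.23, 7.23, 7.92 and 7.56 FPKM in the fl/fl libraries and at 7.504, 6.58, 7.37 and 7.41 FPKM in the cKO libraries. Its log2 fold change was -0.05 with a standard error of 0.09. *Ppp1r11* lies on chromosome 17 (36948356 to 36951741, minus strand) and *Ppp1r7* on chromosome 1 (93342854 to 93373489, plus strand).

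Across the fl/fl libraries the mean levels ran from *Ppp1cc* and *Ppp1ca* through *Ppp1r2*, *Ppp1r11*, *Ppp1cb*, *Ppp1r36*, *Ppp1r7* and *Ppp1r32* to *Ppp1r42*. The library ranges of neighbours overlapped between *Ppp1r2* and *Ppp1r11*, *Ppp1r11* and *Ppp1cb*, *Ppp1r36* and *Ppp1r7*, and *Ppp1r32* and *Ppp1r42*. The ranges alone therefore do not order these neighbours. Within a library *Ppp1r2* was above *Ppp1r11* in 4 of 4, *Ppp1r36* above *Ppp1r7* and *Ppp1r32* above *Ppp1r42* in 3 of 4, and *Ppp1r11* above *Ppp1cb* in 2 of 4. In the cKO libraries the order was the same except that *Ppp1r7* stood above *Ppp1r36*, in 4 of 4 libraries and with no overlap of their ranges. There the ranges of *Ppp1r11* and *Ppp1cb*, *Ppp1r36* and *Ppp1r32*, and *Ppp1r32* and *Ppp1r42* overlapped. *Ppp1r7* was counted over 10495 bases, far more than its coding sequence of 1083 bases, which lowers its FPKM relative to the shorter genes.

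All 9 genes passed the expression filter of a mean above 1 FPKM in both groups. Of the 12141 protein-coding genes tested, 0.0165% were called DE (limma adjusted p below 0.05 with a log2 fold change past 1 in either direction), and 0 of the 9 genes. The study, using DESeq2 at the same thresholds, called more genes DE in these libraries. Of the 9, 3 had an unadjusted limma p below 0.05 and were lower, where 5% of all genes did so, and 0 were higher, where 5.89% of all genes did so. Groups without overlap and lower in the cKO libraries were found in 2 of the 9 and 2.59% of all genes, and groups without overlap and higher in 0 of the 9 and 3.64% of all genes. A log2 fold change below -1 was found in 2 of the 9 and 0.272% of all genes, and 1 below 0 in 8 of the 9 and 48.0% of all genes. The median log2 fold change was -0.21 over the 9 genes and 0.01 over all genes tested. Limma array weights weight each library by its residual spread. With them 57 genes (0.469% of all genes) were called DE, 2 of the 9 among them. In every other alternative, voom and the replicate block included, 0 of the 9 were called. *Ppp1r36* and *Ppp1r42*, chosen with this contrast known, were the 2 without overlap, the 2 below -1 and the 2 called with array weights. They were also among the 3 lower genes. For that reason nothing is read from these shares. *Ppp1r36* ranked 10 and *Ppp1r42* 24 of 12141 from the most negative log2 fold change. As both were chosen with this contrast known, nothing is read from these ranks either.

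The wider set of PP1 partners and related phosphatases was compared through 7 lists of 76 genes, none of them among the 9, of which 55 were tested. By limma 0 of the 55 were called DE, 2 were lower at an unadjusted p below 0.05 (5% of all genes) and 1 was higher (5.89% of all genes). Voom on recovered fragments called 0, with 3 lower (4.83% of all genes in that fit) and 1 higher (5.76%) at an unadjusted p below 0.05. The median log2 fold change of the 55 genes was -0.03. The groups overlapped in all 55, where 2.59% of all genes were lower without overlap and 3.64% higher.

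Among PP1 inhibitors 4 of 9 genes were tested and 0 passed at an unadjusted p below 0.05. *Ppp1r27* had the most negative value of this list, at 3.69 ± 1.35 FPKM in the fl/fl and 2.21 ± 0.973 FPKM in the cKO libraries (SD, n = 4 per group), and is named after its values were seen. The glycogen-targeting list had 2 of 7 genes tested, and *Ppp1r3c*, which binds PP1 to glycogen, was at 2.96 ± 0.620 and 4.14 ± 0.628 FPKM (SD, n = 4 per group), a log2 fold change of 0.48 (limma unadjusted p = 0.0207, adjusted p = 0.369). In the myosin and actin list (10 of 12 tested) and the nuclear and chromosome list (9 of 9 tested, with *Knl1*, *Ppp1r8* and *Ppp1r10*), 0 genes passed, and log2 fold changes ran from -0.13 to 0.22 and from -0.24 to 0.10.

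Of 14 stress and other partners, all tested, 1 was lower, *Ppp1r26*, at 7.57 ± 1.009 and 6.22 ± 0.427 FPKM (SD, n = 4 per group; limma unadjusted p = 0.0436, adjusted p = 0.449). Of 13 testis partners and kinases 6 were tested, with log2 fold changes from -0.22 to 0.11 and 0 passing. *Tssk1* to *Tssk4*, *Akap3*, *Akap4* and *Spz1* were below the filter. Of these *Akap3*, an anchoring protein of the sperm fibrous sheath, was at 1.41 ± 0.196 and 0.826 ± 0.207 FPKM (SD, n = 4 per group) with no overlap between the groups. Of 12 other phosphatases of the PPP family 10 were tested and 1 was lower, *Ppp3r2*, the testis form of the regulatory subunit of calcineurin. *Ppp3r2* stood at 6.0015, 5.07, 7.74 and 4.32 FPKM in the fl/fl libraries and at 4.79, 2.69, 2.86 and 2.67 FPKM in the cKO libraries. Only cKO replicate 1 reached into the fl/fl range, and the log2 fold change was -0.82 with a standard error of 0.23 (limma unadjusted p = 0.00457, adjusted p = 0.242). *Ppef1* and *Ppef2*, phosphatases with calcium-binding EF hands, were below the filter. *Ppef2* was lower at 0.557 ± 0.0632 and 0.296 ± 0.0968 FPKM and *Ppef1* higher at 0.0433 ± 0.0416 and 0.310 ± 0.0515 FPKM (SD, n = 4 per group), on 8 fragments over the fl/fl and 62 over the cKO libraries, both without overlap between the groups. These and *Akap3* were the only genes of the 76 without overlap, and all 3 are named after their values were seen. All 3 were below the filter, where no share over all genes was computed. Above the filter 2.59% of all genes were lower and 3.64% higher without overlap, so nothing is read from this count. *Ppp3cc*, the calcineurin catalytic subunit of sperm, was at 34.9 ± 7.25 and 26.8 ± 4.36 FPKM (SD, n = 4 per group; limma unadjusted p = 0.0520, adjusted p = 0.465), and is named after its values were seen.

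**Figure D4:**
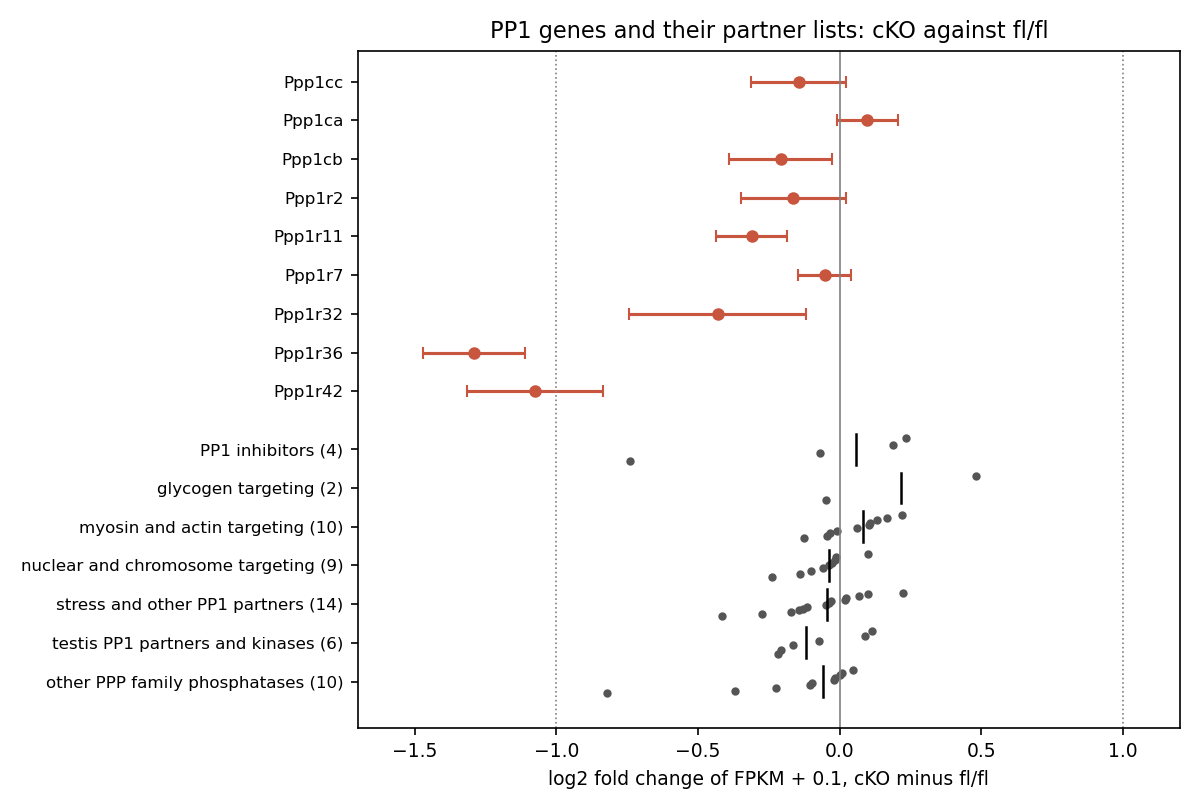
Log2 fold change of FPKM + 0.1, cKO minus fl/fl, for the 9 genes (red points with bars of 1 standard error) and for the tested genes of 7 partner lists (grey points, number in brackets, black line at the list's median). *Ppp1r36* at -1.29 and *Ppp1r42* at -1.08 lie past the dotted line at -1, and no partner gene does, the lowest being *Ppp3r2* at -0.82.

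Likeness to *Ppp1r36* was measured as Pearson's r of log2(FPKM + 0.1) over the 8 libraries among all genes tested. As the libraries share their group difference, depth and tissue make-up, r is given as a description. The 5 genes most alike were *Galnt3* (0.99), *Mycbpap* (0.99), *Prss43* (0.98), *Cdkl4* (0.98) and *Tekt2* (0.98). All 5 had a lower mean in the cKO libraries, with log2 fold changes from -1.22 in *Galnt3* to -0.78 in *Mycbpap*. Choosing by r with a gene that separates the groups favours this direction, so nothing is read from it. With the mean of each group subtracted, so that only the spread within groups counted, the 5 were *Myo1a* (0.96), *Mgat5* (0.96), *Mycbpap* (0.96), *Prss43* (0.95) and *Rexo2* (0.95). *Mycbpap* and *Prss43* were in both sets.

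For *Ppp1r42* the 5 genes most alike over the 8 libraries were *Tex14* (0.99), *Krit1* (0.99), *Ccdc144b* (0.99), *Spata1* (0.98) and *Polq* (0.98). With group means subtracted they were *Tex14* (0.98), *Spata1* (0.97), *Sycp2* (0.97), *Dnah7b* (0.97) and *Catspere2* (0.97). *Tex14*, which encodes a protein of germ cell bridges, led both sets but differed far less in level, at 29.0 ± 1.34 and 25.3 ± 1.58 FPKM (SD, n = 4 per group). The 2 sets of *Ppp1r42* held none of the genes of *Ppp1r36*. Between *Ppp1r36* and *Ppp1r42* themselves r was 0.92 over the 8 libraries and 0.70 with group means subtracted.

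Other annotated genes overlap some of the 9 on the table's coordinates, and the use of strand in counting is not given in the sources used here. *Rad9a* overlaps the end of *Ppp1ca* and *Pask* the start of *Ppp1r7*, each on the opposite strand. *Rad9a* was at 4.78 ± 0.983 and 5.93 ± 0.612 FPKM and *Pask* at 16.7 ± 2.00 and 13.5 ± 1.23 FPKM (SD, n = 4 per group). Within *Ppp1r42* the antisense gene *Gm15818* had 22 fragments over the fl/fl and 6 over the cKO libraries, against 392 and 206 for *Ppp1r42*. Within *Ppp1r36* the snRNA *Gm25563*, on the opposite strand, had 17 and 6 fragments, against 1754 and 783 for *Ppp1r36*. *Gm15614*, antisense to part of *Ppp1cb*, was at 0.369 ± 0.0924 and 0.165 ± 0.0872 FPKM (SD, n = 4 per group) without overlap between the groups. It had only 35 fragments over the fl/fl and 17 over the cKO libraries. Its Poisson limits overlapped, reaching up to 0.532 FPKM in the cKO and down to 0.124 FPKM in the fl/fl libraries. The other overlapping genes were *Gm42748* with *Ppp1cc*, *Gm27415* with *Ppp1r2*, *Gm15613*, *Gm43313* and *Gm43312* with *Ppp1cb*, *Gm26446*, *Mir6902* and *Mir6345* with *Ppp1r7*, and *E330040D14Rik* with *Ppp1r42*, at group means of 0.0603 to 7.05 FPKM.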

How the data were processed

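RNA-seq libraries of whole testes from 4 fl/fl and 4 cKO mice were analysed, grouped as labelled. The authors deposited FPKM values, made with the software of the sequencing company, in a table with gene lengths, on GRCm38 (mm10) per the labels. The aligner and the counter are not given in the sources used here. The single-library files repeated the table. Fragments recovered from FPKM and gene length were whole in 100% of values (tolerance 0.02) and gave the totals per library. Of the genes, 99.8% were in GENCODE vM21, 98.3% of them with the same start and end.

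All protein-coding genes with a mean above 1 FPKM in both groups were tested with limma 3.58.1 in R 4.3.3 (eBayes, trend on mean level), 4 against 4 libraries on the log2(FPKM + 0.1) scale, with Benjamini-Hochberg adjustment. This scale understates changes of low genes. DESeq2, the test of the study, was not run on FPKM. The procedure was tested on simulated data. The members, lists and alternatives were chosen with earlier results of these data known. Genes were named by rule: the 9 members, list genes with an unadjusted p below 0.05, the 5 genes most like *Ppp1r36* and *Ppp1r42*, neighbours of both, and genes overlapping members. *Ppp1r27*, *Ppp3cc*, *Akap3*, *Ppef1* and *Ppef2* were named outside it, after their values were seen. Alternatives covered pseudocount, filter, biotype, scaling, a replicate block, weights, voom and each library left out. Same-numbered libraries deviated together with r of 0.0757 to 0.406, positive in all 4 pairs and below 0.1 in 1. These values do not exclude a shared replicate structure. The labels number the libraries but give no pairing, so the mice were treated as unpaired, with the replicate block as an alternative. Figures were drawn with matplotlib 3.10.9.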

Additional observations from a re-analysis of the deposited data

Results flagged for a closer look

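The *Ppp1r7* level of 6.58 FPKM in cKO replicate 2 stood far below the other 3 libraries of its group, which were at 7.37 to 7.504 FPKM. It was the only such value in the 18 groups of 4 libraries examined (9 genes in fl/fl and cKO), where chance gives about 0.9.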

How the results depend on the processing

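The direction of *Ppp1r36* and *Ppp1r42* was the same in every alternative run: the log2 fold change of *Ppp1r36* ranged from -1.42 without cKO replicate 2 to -1.17 without cKO replicate 4, and was -1.10 with a pseudocount of 1. That of *Ppp1r42* ranged from -1.27 without cKO replicate 1 to -0.91 without cKO replicate 4, and was -0.80 with a pseudocount of 1. *Ppp1r32* ranged from -0.78 without control replicate 1 to -0.27 without control replicate 3. *Ppp1r7* moved from -0.05 to 0.024 with rescaling to TPM. The list genes lower at an unadjusted p (2 of 55) became 7 of 69 when the filter was lowered to an overall mean of 0.1 FPKM (4.86% of all genes), 5 of 76 with no filter on FPKM (4.4%), 4 of 55 with median centring on autosomal genes (4.57%), 5 of 55 with the replicate block (6.81%) and 5 of 55 with array weights (9.93%), and 1 to 4 with each library left out (2.67% to 7.81%). Those higher (1 of 55) became 2 of 69 with the lower filter (6.23% of all genes), 2 of 76 with no filter (5.61%), 2 of 55 with rescaling to TPM (7.47%) and 2 of 55 with array weights (11%), and 0 to 5 with each library left out, 5 of 55 without control replicate 1 (9.66%). The replicate block gave 1 higher list gene and 0 DE genes over all genes. By limma and voom 0 list genes were DE in any alternative. Over all genes voom on the recovered fragments called 2 genes DE, as did limma on FPKM. The cause of these changes was not tested. Low fragment counts of *Ppp1r32* and *Ppp1r42* limit their precision.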
